A study of Mus musculus with 2 samples.

Results

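The genes described here are 36 members of the lysosome: membrane proteins, soluble hydrolases with their cofactors, subunits of the proton pump, and 2 transcription factors that switch many of these genes on. They were taken by symbol, and all 36 were found in both libraries among the 19070 genes that the files list. Each library held single cells of a tumour model in which Lewis lung carcinoma (LLC), an established line of lung cancer cells, was grown under the skin of mice. Mice of the first library received anti-PD-1, an antibody that blocks a brake on T cells, and cells were collected at day 7 after treatment. Mice of the second, the control, received an IgG2a isotype control antibody, although the series text calls these cells untreated, and no day of collection is given for them. Strain and age of the animals, and how many mice stand behind each library, are not given in the sources used here. With 1 library per group there was no replicate check, so no test was made and each value compares these 2 libraries alone.

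The lysosome is the acidic compartment in which proteins, glycans, glycogen and lipids taken up from outside or delivered by autophagy are broken down. Its V-type proton pump acidifies the lumen, glycosylated membrane proteins such as LAMP1 line it, and cathepsins cut proteins inside it. Macrophages, which digest what they engulf, are known for a large lysosomal compartment. TFEB and TFE3 are basic helix-loop-helix factors of the MiT family that enter the nucleus when lysosomes are stressed or nutrients fall, and bind a palindromic E-box in the promoters of lysosomal genes.

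The E-box is shown here because it is the sequence feature most tied to these genes, and its presence could be set beside their values. Promoter windows of 300 bases, from 250 before to 50 after the start, were available from RefSeq (GRCm38.p6) for 29 of the 36 members and for 14085 genes in all. Npc1, Ctsb, Ctsh, Asah1, Atp6v0d2, Atp6v1b2 and Atp6v1h had no matched window. Each of the 3 motifs searched reads the same on both strands, and each longer one contains the shorter. The core CACGTG stood in 10 of 29 members (34.5%) and in 10.0% of all matched genes. Its extended form TCACGTGA stood in 6 of 29 members (20.7%) and in 1.66% of all matched genes. The longest form, GTCACGTGAC, stood in 0 of 29 members and in 0.554% of all matched genes. A stretch around the core in each of the 10 members that hold it follows, 5′ to 3′ in the direction of the gene, with the core or its extended form in capitals. They are ordered by the gene's ratio in tumour cells, from the highest to the lowest.
Gaa: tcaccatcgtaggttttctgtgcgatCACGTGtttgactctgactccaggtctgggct
Ctsd: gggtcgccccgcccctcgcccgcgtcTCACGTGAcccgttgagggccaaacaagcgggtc
Mcoln1: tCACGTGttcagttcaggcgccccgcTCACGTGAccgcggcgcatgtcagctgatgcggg
Lamp1: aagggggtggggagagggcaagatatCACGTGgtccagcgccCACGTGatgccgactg
Ctsa: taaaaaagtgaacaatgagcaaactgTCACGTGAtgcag
Glb1: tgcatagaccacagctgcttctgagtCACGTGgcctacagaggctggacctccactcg
Ctsl: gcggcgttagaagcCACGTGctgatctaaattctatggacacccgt
Atp6v0d1: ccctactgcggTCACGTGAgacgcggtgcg
Atp6v1a: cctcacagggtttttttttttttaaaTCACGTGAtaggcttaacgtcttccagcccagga
Gla: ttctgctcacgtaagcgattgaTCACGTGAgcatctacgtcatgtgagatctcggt

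On the + strand the stretch of Gaa is chr11:119267797-119267854, Mcoln1 is chr8:3500447-3500506, Lamp1 is chr8:13159074-13159131, Ctsa is chr2:164833734-164833772, and Glb1 is chr9:114401004-114401061. On the − strand the stretch of Ctsd is chr7:142387893-142387952, Ctsl is chr13:64370725-64370770, Atp6v0d1 is chr8:105566050-105566079, Atp6v1a is chr16:44139358-44139417, and Gla is chrX:134601200-134601255. Coordinates are those of GRCm38.p6 (mm10), and that of Ctsa lies in 1 of the 2 windows of this gene. Lamp1 and Mcoln1 hold the core 2 times in the stretch shown, and each of the other 8 holds 1 copy. The windows of Ctsd, Lamp1, Ctsa and Gla hold further copies of the core outside the stretch shown. The letters in capitals begin 140 bases upstream of the start in Gaa, 99 in Ctsd, 61 in Lamp1 (the first of its copies) and 48 in Glb1. In Atp6v0d1 they begin 4 bases upstream and so span the start.

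The anti-PD-1 library held 115407230 unique molecular identifiers (UMIs, counted RNA molecules) in 9423 barcodes, and the control library 113268618 UMIs in 8441 barcodes. Tumour cells, macrophages and monocytes were set by UMIs of marker genes that include no lysosome member. Tumour cells, marked by Hmga2, Igf2bp1, Igf2bp2 and Wnt7b, numbered 4994 in the anti-PD-1 library and 3504 in control, with medians of 13840 and 17061 UMIs. Macrophages, marked by C1qa, C1qb, C1qc, Adgre1, Mrc1, Ms4a7, Trem2 and Mertk, numbered 711 and 471, with medians of 3857 and 3510 UMIs. Monocytes, set by 4 markers that include Ccr2, Chil3 and Plac8, numbered 223 and 178, with medians of 2402 and 2530 UMIs. All 8 macrophage and all 4 monocyte markers were detected in their classes in both libraries. Since the same markers set the classes, their detection is no check of the class names. The remaining cells of the myeloid gate, called intermediate here, numbered 265 and 241, and 34.3% of anti-PD-1 cells and 47.7% of control cells fell in no class. The libraries shared 107 cell barcodes. Haemoglobin UMIs, a sign of red blood cell RNA, stood at 52.2 CPM (counts per 1000000 UMIs of the class) in anti-PD-1 tumour cells and 531 CPM in control tumour cells, and at 66.3 CPM and 639 CPM in macrophages. Their part in the results below was not tested.

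Lysosome members took up a larger share of RNA in macrophages than in tumour cells, and in all 3 classes a larger share in the anti-PD-1 library. In macrophages the 36 genes held 5.19% of UMIs in the anti-PD-1 library and 4.33% in control. In monocytes they held 2.73% in the anti-PD-1 library and 2.33% in control. In tumour cells they held 1.42% in the anti-PD-1 library and 1.16% in control. The summed log2 ratio, anti-PD-1 over control, was 0.28 in tumour cells, 0.26 in macrophages and 0.23 in monocytes, with 95% intervals of 0.278 to 0.286, 0.250 to 0.273 and 0.198 to 0.265. These exact intervals, like all others given, cover counting error only and say nothing of variation between mice. In intermediate cells the shares were 2.77% in the anti-PD-1 library and 2.56% in control. Abundant genes weigh most in these sums. In macrophages Ctsb had 15446 CPM in the anti-PD-1 library and 10665 CPM in control, and Grn had 8673 CPM and 6565 CPM.

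**Figure D1:**
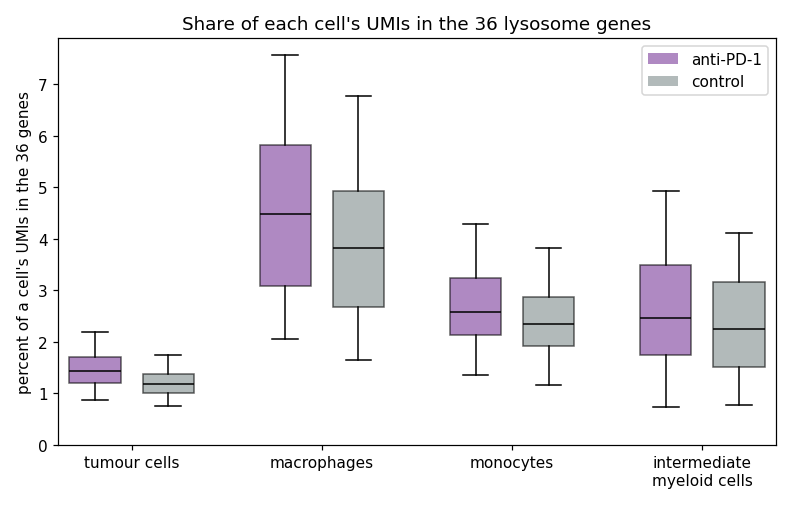
Percent of a cell's UMIs that fall in the 36 lysosome genes (vertical axis), in the anti-PD-1 (left of each pair) and control library for 4 classes of cells. Boxes span the quartiles over cells, lines in them are medians and whiskers run from the 5th to the 95th percentile of cells, which are not replicates. Medians were 4.48% of UMIs in anti-PD-1 macrophages and 3.81% in control macrophages, and 1.42% and 1.17% in tumour cells, with overlapping boxes.

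The shares of single cells overlapped widely between libraries. The quartiles of macrophages were 3.07% and 5.81% in the anti-PD-1 library and 2.67% and 4.92% in control. The quartiles of tumour cells were 1.19% and 1.70% in the anti-PD-1 library and 1.004% and 1.36% in control. In UMIs per cell the tumour classes stood the other way round, with 248 in the anti-PD-1 library and 265 in control, and control tumour cells carried more UMIs of all genes.

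In tumour cells most lysosome members stood higher in the anti-PD-1 library, by modest folds. The median log2 ratio over the 35 members with at least 100 UMIs, the minimum for a gene to count as measured, was 0.29, and that of all 11802 measured genes was −0.00. Of the 35 members, 29 lay above the median gene, as 50% of all genes do. At least 1.25-fold higher were 17 of 35 (48.6%), against 13.2% of all measured genes. At least 1.25-fold lower were 2 of 35, against 16.9% of all measured genes. No member reached 2-fold in either direction, which 0.796% of all genes did upward and 3.64% downward. The 36th member, Atp6v0d2, a pump subunit of osteoclasts and some macrophages, had 5 UMIs in anti-PD-1 tumour cells and 29 in control tumour cells and was not counted. Since the gene probes differ in efficiency, levels are compared between libraries and classes for 1 gene at a time, not between genes.

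The 2 transcription factors were near level in tumour cells. Tfeb had 10.2 CPM in anti-PD-1 tumour cells and 10.7 CPM in control tumour cells, and Tfe3 had 43.2 CPM and 43.3 CPM. Their log2 ratios of −0.07 and −0.00 had intervals that span 0.

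Of the 6 membrane proteins, 4 were at least 1.25-fold higher in anti-PD-1 tumour cells, against 13.2% of all measured genes, and none lower, against 16.9%. Mcoln1, the calcium channel TRPML1, had 82.4 CPM in anti-PD-1 tumour cells and 56.4 CPM in control tumour cells, a log2 ratio of 0.55 (interval 0.49 to 0.60). Scarb2, the membrane protein LIMP-2, had 252 CPM in anti-PD-1 tumour cells and 179 CPM in control (log2 ratio 0.49). Lamp1, a main glycoprotein of the lysosomal membrane, had 469.6 CPM in anti-PD-1 tumour cells and 335 CPM in control (log2 ratio 0.49). These genes differed by about the same factor. Npc1, which exports cholesterol, had 129 CPM in anti-PD-1 tumour cells and 99.5 CPM in control (log2 ratio 0.37). Lamp2, a LAMP protein with a role in autophagy, had 274 CPM in anti-PD-1 tumour cells and 233 CPM in control (log2 ratio 0.23). Cd63, a tetraspanin of late endosomes that is also carried on exosomes, had 1885 CPM in anti-PD-1 tumour cells and 1851 CPM in control, and so was nearly level (log2 ratio 0.03).

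Among the 9 glycosidases and lipid hydrolases, 5 were at least 1.25-fold higher, against 13.2% of all measured genes, and none was 1.25-fold lower, against 16.9%. Gaa, the acid alpha-glucosidase that degrades glycogen, had the highest ratio of all members, with 412 CPM in anti-PD-1 tumour cells and 243 CPM in control, a 1.69-fold level (log2 ratio 0.76, interval 0.73 to 0.79). Asah1, the acid ceramidase, had 222 CPM in anti-PD-1 tumour cells and 141 CPM in control (log2 ratio 0.65). These led the group. Glb1, the beta-galactosidase read out in senescence staining, had 261 CPM in anti-PD-1 tumour cells and 194 CPM in control (log2 ratio 0.42). Man2b1, an alpha-mannosidase, and Neu1, a sialidase, had log2 ratios of 0.45 and 0.44. The beta-hexosaminidase gene Hexa, the acid lipase gene Lipa and the beta-glucuronidase gene Gusb stood between 0.21 and 0.29, under 1.25-fold. Gla, the alpha-galactosidase that cleaves globotriaosylceramide, was the one member of the group below 0, with 28.2 CPM in anti-PD-1 tumour cells and 30.9 CPM in control (log2 ratio −0.13).

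The 9 proteases had the widest range of any role in tumour cells. Tpp1, a tripeptidyl peptidase, had 215 CPM in anti-PD-1 tumour cells and 129 CPM in control (log2 ratio 0.74, interval 0.70 to 0.77). Ctsd, the aspartic protease cathepsin D, had 229 CPM in anti-PD-1 tumour cells and 148 CPM in control (log2 ratio 0.63). Ctsa, which protects Neu1 and Glb1 in a complex, had 211 CPM in anti-PD-1 tumour cells and 153 CPM in control (log2 ratio 0.47). All 3 lay well above the median gene. Ctsb, a cysteine protease, had 1435 CPM in anti-PD-1 tumour cells and 1118 CPM in control (log2 ratio 0.36). Ctsl and Ctsz, with log2 ratios of 0.28 and 0.14, were below 1.25-fold. Ctsk, the collagen-degrading cathepsin, was scarce, with 5.18 CPM in anti-PD-1 tumour cells and 4.02 CPM in control.

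The 2 proteases that stood lower were those with the highest ratios of macrophages over tumour cells. Ctsc, the dipeptidyl peptidase that activates granule proteases of leukocytes, had 110 CPM in anti-PD-1 tumour cells and 153 CPM in control (log2 ratio −0.48, interval −0.52 to −0.44). Ctsh, an aminopeptidase, had 7.51 CPM in anti-PD-1 tumour cells and 12.5 CPM in control (log2 ratio −0.74, interval −0.88 to −0.60). The 8 macrophage markers, summed, stood at 264 CPM in anti-PD-1 tumour cells and 305 CPM in control tumour cells, or 1.19% and 1.87% of their level in macrophages of the same library. At those shares, RNA like that of macrophages would hold 37.2% of the Ctsc CPM in anti-PD-1 tumour cells and 52.0% in control tumour cells. For Ctsh it would hold 68.9% in anti-PD-1 tumour cells and 92.7% in control. With that RNA subtracted, an alternative added after seeing the data, the ratio was −0.10 for Ctsc and 1.34 for Ctsh, so that neither difference kept its value and that of Ctsh turned round. For Gaa the same part was 0.682% in anti-PD-1 tumour cells and 1.67% in control, and its ratio stayed at 0.76.

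The soluble cofactors and the pump stood closer to level by their medians of 0.18 and 0.13. Grn, which encodes progranulin, the precursor of the lysosomal granulins, had 1987 CPM in anti-PD-1 tumour cells and 1444 CPM in control (log2 ratio 0.46). Npc2, which hands cholesterol to Npc1, and Psap, the precursor of the saposins that present lipids to hydrolases, had log2 ratios of 0.18 and 0.10. RNA like that of macrophages would hold 8.35% of the Psap CPM in anti-PD-1 tumour cells and 19.7% in control. With that RNA subtracted, the ratio of Psap was 0.28 and that of Npc2 0.20. Of the 6 measured pump genes, Atp6v0a1, a subunit of the membrane part, had 48.6 CPM in anti-PD-1 tumour cells and 34.3 CPM in control (log2 ratio 0.50). The accessory subunit gene Atp6ap1 had 558 CPM in anti-PD-1 tumour cells and 436 CPM in control (log2 ratio 0.36). Atp6v0d1, of the membrane part, and Atp6v1a, the catalytic subunit, had log2 ratios of 0.19 and 0.07, so both were under 1.25-fold. Atp6v1b2 and Atp6v1h, subunits of the cytosolic part, stood at −0.19 and −0.14. The pump genes so had a median of 0.13, against 0.42 for the glycosidases and lipid hydrolases and 0.43 for the membrane proteins.

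**Figure D2:**
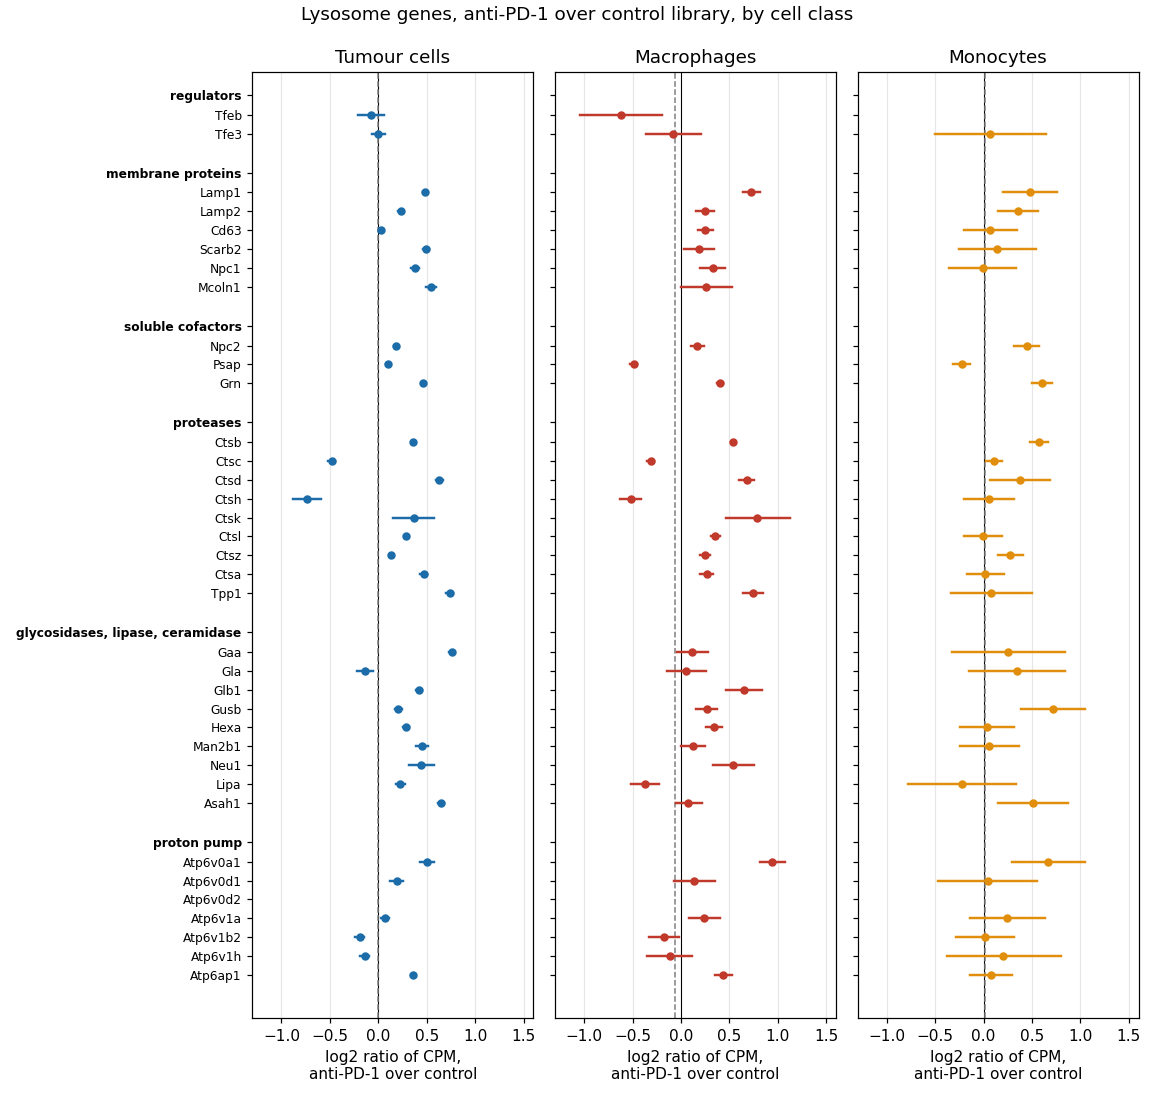
Log2 ratio of CPM, anti-PD-1 over control (horizontal axis), for each measured lysosome gene in tumour cells, macrophages and monocytes, grouped by role. Bars are 95% intervals of counting error, solid lines mark 0 and dashed lines the median gene of the class. Most points lie right of both lines, with Ctsh and Ctsc to the left in tumour cells and Tfeb, Ctsh, Psap and Lipa furthest left in macrophages.

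In tumour cells the members with the E-box core had a median log2 ratio of 0.45 (10 genes) and those without it 0.23 (19 genes). By the extended form TCACGTGA the gap was smaller, with 0.33 for members that hold it (6 genes) and 0.29 for the others (23 genes). Over all measured genes the medians were 0.01 with the core (1102 genes) and −0.00 without it (8265 genes). The members with the core ranged from −0.13 for Gla to 0.76 for Gaa, so the core did not go with one value. In macrophages the medians were 0.26 with the core and 0.25 without it. In monocytes the medians were 0.25 with the core (8 genes) and 0.09 without it (16 genes), against 0.01 and 0.01 for all measured genes. These are descriptions of a match of letters, with no test.

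In macrophages, too, most members stood higher in the anti-PD-1 library, but Psap, Ctsh, Lipa and Tfeb stood lower. The median log2 ratio of the 35 measured members was 0.25 and that of all 8078 measured genes −0.07, and 27 of 35 members lay above that median gene, as 50% of all genes do. At least 1.25-fold higher were 13 of 35, against 11% of all measured genes, and at least 1.25-fold lower were 4 of 35, against 19.5%. No member passed 2-fold, a level reached by 0.706% of all genes upward and 1.36% downward. The 8 macrophage markers, summed, stood at 22192 CPM in anti-PD-1 macrophages and 16338 CPM in control macrophages.

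Atp6v0a1 had the highest ratio in macrophages, with 574 CPM in the anti-PD-1 library and 299 CPM in control, a 1.92-fold level (log2 ratio 0.94, interval 0.81 to 1.07). Ctsk had 85.2 CPM in anti-PD-1 macrophages and 49.3 CPM in control (log2 ratio 0.79, interval 0.47 to 1.12). Tpp1 had 761 CPM in anti-PD-1 macrophages and 454 CPM in control (log2 ratio 0.74). Tpp1 thus stood at nearly the same ratio as in tumour cells. Lamp1 had 1081 CPM in anti-PD-1 macrophages and 652 CPM in control (log2 ratio 0.73). Ctsd had 1445 CPM in anti-PD-1 macrophages and 903 CPM in control (log2 ratio 0.68). Glb1 had 232 CPM in anti-PD-1 macrophages and 148 CPM in control (log2 ratio 0.65). These 6 genes, from membrane, protease, glycosidase and pump, had the highest ratios in macrophages. Neu1 (0.54), Ctsb (0.53), Atp6ap1 (0.44) and Grn (0.40) followed by log2 ratio. Over the alternatives described at the end, the ratio ranged from 0.09 to 1.36 for Ctsk and from 0.20 to 0.77 for Glb1. It ranged from 0.17 to 0.79 for Lamp1, 0.30 to 0.79 for Ctsd, 0.43 to 0.81 for Tpp1 and 0.74 to 1.01 for Atp6v0a1. Ctsb had 15446 CPM in anti-PD-1 macrophages and 10665 CPM in control macrophages.

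Gaa and Asah1, which led the glycosidases and lipid hydrolases in tumour cells, were under 1.25-fold in macrophages. Gaa had 236 CPM in anti-PD-1 macrophages and 217 CPM in control (log2 ratio 0.12), and Asah1 had 346 CPM and 328 CPM (log2 ratio 0.08), both with intervals that span 0. For Gaa this call changed with the cells taken: its ratio was 0.53 with cells left out that hold any UMI of another class's markers, and 0.34 without the Arg1 group described below, both past 1.25-fold. Whether their ratios differ between the classes was not tested.

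Psap stood lower in macrophages, with 3619 CPM in the anti-PD-1 library and 5069 CPM in control (log2 ratio −0.49, interval −0.52 to −0.45). Ctsh had 435 CPM in anti-PD-1 macrophages and 623 CPM in control (log2 ratio −0.52). Lipa, whose product frees cholesterol from its esters, had 241 CPM in anti-PD-1 macrophages and 311 CPM in control (log2 ratio −0.37). Ctsc had 3437 CPM in anti-PD-1 macrophages and 4274 CPM in control (log2 ratio −0.31, just short of 1.25-fold). All of these genes are more abundant in macrophages than in tumour cells. Lower as well was Tfeb, from few molecules, 104 UMIs or 27.8 CPM in anti-PD-1 macrophages and 91 UMIs or 42.7 CPM in control (log2 ratio −0.62, interval −1.04 to −0.20). Tfe3 was level at 74.5 CPM in anti-PD-1 macrophages and 78.8 CPM in control. Atp6v1b2 and Atp6v1h again had the lowest ratios of the pump, −0.17 and −0.12, and Atp6v0d2 had 7 UMIs in anti-PD-1 macrophages and 9 in control.

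Monocytes gave fewer molecules, and 30 members were measured in them. Their median log2 ratio was 0.13, against 0.02 for all 2684 measured genes, and 25 of 30 lay above the median gene, as 50% of all genes do. At least 1.25-fold higher were 10 of 30, against 19.4% of all measured genes, and none of the 30 was 1.25-fold lower, against 17.1%. None was 2-fold higher or lower, against 1.12% and 1.34% of all genes. Gusb had 370.1 CPM in anti-PD-1 monocytes and 226 CPM in control (log2 ratio 0.71, interval 0.39 to 1.05). Atp6v0a1 had 276 CPM in anti-PD-1 monocytes and 174 CPM in control (log2 ratio 0.67). Grn had 3323 CPM in anti-PD-1 monocytes and 2185 CPM in control (log2 ratio 0.60). Both are thus among the higher members in all 3 classes. Ctsb had 3880.2 CPM in anti-PD-1 monocytes and 2610 CPM in control (log2 ratio 0.57). Asah1 (0.51), Lamp1 (0.48) and Npc2 (0.45) came next by log2 ratio. Psap again stood lower, with 3338 CPM in anti-PD-1 monocytes and 3907 CPM in control (log2 ratio −0.23, interval −0.32 to −0.14). Lipa had a log2 ratio of −0.22 with an interval that spans 0, and Npc1 and Ctsl stood at −0.01. With cells left out that hold any UMI of another class's markers, 24 members were measured, of which 5 were at least 1.25-fold higher and 2 lower.

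The intermediate myeloid cells showed less of a difference. Their median log2 ratio was 0.07 over 32 measured members, 17 of which lay above the median gene, as 50% of all genes do. At least 1.25-fold higher were 5 of 32, against 19.4% of all measured genes, and 1 was lower, against 17.7%.

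Atp6v0a1, Lamp1, Ctsb and Grn were at least 1.25-fold higher in the anti-PD-1 library in all 3 classes, and so was Ctsd. How many of all genes were so in all 3 classes was not counted. In intermediate cells, Atp6v0a1 (0.89) and Grn (0.39) were past 1.25-fold, and Lamp1 (0.25), Ctsb (0.30) and Ctsd (0.18) were under it. Outside the Lyve1 group of macrophages, described below, Lamp1 (0.17), Ctsb (0.07), Grn (0.15) and Ctsd (0.30) were under that level, and Atp6v0a1 (0.82) was past it. Outside the Gria3 group of tumour cells, Grn (0.23) and Ctsb (0.32) were under it. In monocytes with no UMI of another class's markers, Lamp1 (0.32) and Ctsd (0.31) were just short of it, and Ctsd was at 0.19 with cells thinned to 2000 UMIs. The classes share libraries, so they are not independent of each other. The 4 tumour markers were also found in the other classes. RNA like that of tumour cells, at the level of these markers, would make up 9.34% of macrophage UMIs in the anti-PD-1 library and 11.6% in control, and 5.81% and 6.21% of monocyte UMIs. Of the Lamp1 CPM in macrophages this part would be 4.06% in the anti-PD-1 library and 5.94% in control, and its ratio after subtraction was 0.72. Of the Gaa CPM in macrophages it would be 16.3% in the anti-PD-1 library and 12.9% in control, and the Gaa ratio after subtraction was 0.03.

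Between cell classes the differences were far larger than between libraries. In both libraries, 24 of 35 members were at least 2-fold higher in macrophages than in tumour cells, against 11.9% of all 11203 measured genes, and none was 2-fold lower, against 28.3%. The median log2 ratio, macrophages over tumour cells, was 1.45 in the anti-PD-1 library and 1.67 in control, against −0.63 and −0.56 for all genes. A gene counted as measured here if it had at least 100 UMIs over both classes in each library. In the anti-PD-1 library tumour cells held 87322641 UMIs and macrophages 3743027, so a gene could reach this minimum through tumour cells alone. The shares and medians of all genes depend on this, and they are no neutral baseline for the members. Ctsh (5.85 in the anti-PD-1 library and 5.63 in control) and Ctsc (4.97 and 4.80) had the highest log2 ratios. Ctsk (4.04 and 3.62), Neu1 (3.62 and 3.52), Psap (2.81 and 3.40) and Ctsb (3.43 and 3.25) were also among the highest. Atp6v0a1 was the pump gene with the largest lead in macrophages (3.56 in the anti-PD-1 library and 3.12 in control), while Atp6v1h had one of 0.51 and 0.49.

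Cd63, Gaa and Glb1 were higher in tumour cells in both libraries. For Cd63 the log2 ratio, macrophages over tumour cells, was −0.81 in the anti-PD-1 library and −1.03 in control. For Gaa it was −0.81 in the anti-PD-1 library and −0.16 in control, and for Glb1 −0.17 and −0.39. Ctsl (0.42 in the anti-PD-1 library and 0.35 in control) and Scarb2 (0.09 and 0.39) had small leads in macrophages, past 1.25-fold in both libraries for Ctsl and in control for Scarb2. Ctsl had 3000 CPM in anti-PD-1 macrophages and 2343 CPM in control macrophages, beside 2244 CPM in anti-PD-1 tumour cells and 1844 CPM in control tumour cells.

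**Figure D3:**
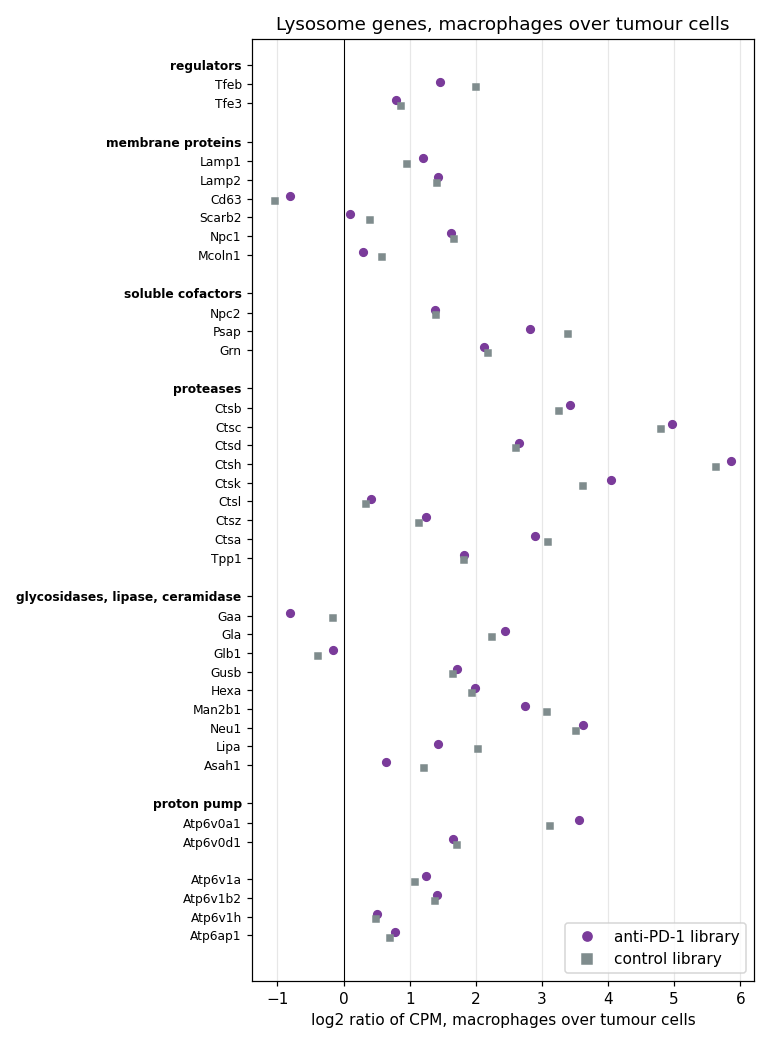
Log2 ratio of CPM, macrophages over tumour cells (horizontal axis), for each lysosome gene by role, in the anti-PD-1 library (circles) and the control library (squares). Ctsh, Ctsc, Ctsk and Neu1 lie furthest right in both libraries, and Cd63, Gaa and Glb1 lie left of 0 in both.

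By the summed share of UMIs monocytes took a middle place, but not every member did so. Over tumour cells, 15 of 35 members were at least 2-fold higher in both libraries, against 11.8% of all genes, and 4 were 2-fold lower, against 34.3%. Those 4 were Cd63 (log2 ratio −2.25 in the anti-PD-1 library and −2.29 in control), Gaa (−2.06 and −1.55), Ctsl (−1.53 and −1.25) and Glb1 (−1.47 and −1.75). Here too a gene could reach the minimum of UMIs through tumour cells alone, so these shares of all genes are no neutral baseline. In macrophages over monocytes, 11 of 35 were at least 2-fold higher in both libraries, against 4.20% of all genes, and none 2-fold lower, against 3.47%. Ctsk (log2 ratio 3.76 in the anti-PD-1 library and 2.35 in control), Tpp1 (2.10 and 1.44), Ctsd (2.03 and 1.73), Ctsb (1.99 and 2.03) and Ctsl (1.95 and 1.59) were among the 11. Ctsk rested on 4 UMIs in anti-PD-1 monocytes and 5 in control monocytes. Ctsc (−0.32 and 0.11), Ctsh (−0.06 and 0.51) and Psap (0.12 and 0.38) were within 2-fold between macrophages and monocytes in both libraries. Npc2 (−0.59 and −0.31) and Atp6v1b2 (−0.50 and −0.31) were higher in monocytes in both libraries, with intervals that leave out 0.

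Macrophages differed among themselves, and the mix differed between libraries. Cells with at least 3 UMIs of Lyve1, Folr2 and Timd4, markers of resident-type macrophages, made up 52.5% of anti-PD-1 macrophages and 30.1% of control macrophages. They were deeper, with medians of 5794 UMIs in the anti-PD-1 library and 5726 in control, against 2626 and 2897 in the other macrophages, and a cell with more UMIs meets the minimum more easily. The macrophage markers also stood higher in them, at 25595 CPM in the Lyve1 group and 12879 CPM in the others in the anti-PD-1 library, and at 21107 CPM and 12169 CPM in control. The part of depth and of these markers in what follows was not tested. Within a library the Lyve1 group held more lysosome RNA: 25 of 35 members were at least 1.25-fold higher in them in the anti-PD-1 library, against 15% of all genes, and 20 of 34 in control, against 12.1%. The largest lead was that of Ctsk, with a log2 ratio, Lyve1 group over other macrophages, of 2.30 in the anti-PD-1 library and 2.11 in control. Ctsb (1.24 in the anti-PD-1 library and 0.96 in control), Lamp1 (1.11 and 0.62), Ctsd (1.10 and 0.90) and Tpp1 (1.08 and 0.99) also led. Tfeb went the other way, at −0.47 in the anti-PD-1 library, and at −1.46 in control from 91 UMIs, under the minimum.

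The difference between the libraries was smaller within these parts of the macrophages. In the Lyve1 group the median log2 ratio, anti-PD-1 over control, was 0.19, 10 of 34 members were at least 1.25-fold higher against 14.2% of all genes, and 4 were lower against 18.3%. In the other macrophages it was 0.03, with 3 of 34 higher against 15.2% of all genes, and 4 lower against 16.4%. Without the Lyve1 group, then, these small counts past 1.25-fold lay near the shares of all genes. The median gene of these cells stood at −0.003, beside 0.03 for the members. Ctsb had a log2 ratio of 0.34 in the Lyve1 group and 0.07 in the others, against 0.53 in all macrophages. Lamp1 had 0.66 in the Lyve1 group and 0.17 in the others. Atp6v0a1 was nearly as high in both parts as in all macrophages, with 0.85 in the Lyve1 group and 0.82 in the others, and Psap stood lower in both, at −0.57 and −0.64.

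Macrophages with at least 3 UMIs of Arg1 and Mmp12 made up 17.02% of anti-PD-1 macrophages and 28.7% of control macrophages. Ctsk (log2 ratio over other macrophages 2.05 in the anti-PD-1 library and 2.39 in control) and Ctsl (0.81 and 0.84) led in them, while the median over the measured members was −0.01 in the anti-PD-1 library and 0.13 in control. Of the 35 members, 6 were at least 1.25-fold higher in the anti-PD-1 library, against 11.1% of all genes. Between the libraries the median log2 ratio was 0.24 in the Arg1 group and 0.26 in the other macrophages. The Arg1 group was deeper, with medians of 4608 UMIs in the anti-PD-1 library and 3903 in control, against 3608 and 3300 in the other macrophages. The part of this depth was not tested.

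Tumour cells were divided in the same way. Those with at least 3 UMIs of Gria3, Dmpk and Atp13a4 made up 54.1% of anti-PD-1 tumour cells and 34.3% of control tumour cells. In them the median log2 ratio, anti-PD-1 over control, was 0.29, with 16 of 35 members at least 1.25-fold higher, against 13.4% of all genes. In the other tumour cells it was 0.23, with 12 of 35, against 11.9% of all genes. Both parts thus showed the difference. Within a library the Gria3 group led the others by a median of 0.17 in the anti-PD-1 library and 0.14 in control. It was also deeper, with medians of 15768 UMIs in the anti-PD-1 library and 22716 in control, against 12133 and 15114 in the other tumour cells. The part of depth in this lead was not tested. The largest leads in the anti-PD-1 library were those of Tpp1 (0.65, and 0.41 in control), Grn (0.60, and 0.35 in control), Ctsd (0.53, and 0.47 in control) and Neu1 (0.51, and 0.50 in control). In control Ctsh also led, at 0.42, against 0.19 in the anti-PD-1 library. Macrophage markers, summed, stood at 331 CPM in the Gria3 group and 281 CPM in the others in control, and at 266 CPM and 261 CPM in the anti-PD-1 library. The part of macrophage RNA, given above for Ctsh, in this lead was not tested. Tumour cells with at least 3 UMIs of Il24 and Msln made up 5.23% of the anti-PD-1 class and 24.0% of the control class, and the median ratio was 0.23 in them and 0.35 in the others. The Il24 group was deeper too, with medians of 21056 UMIs in the anti-PD-1 library and 25045 in control, against 13524 and 15354 in the others. Fibroblast markers (Pdgfra, Dpt, Lum, Dcn and Pi16), summed, stood at 489.5 CPM in anti-PD-1 tumour cells and 356 CPM in control tumour cells. Their part in these ratios was not tested.

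**Figure D4:**
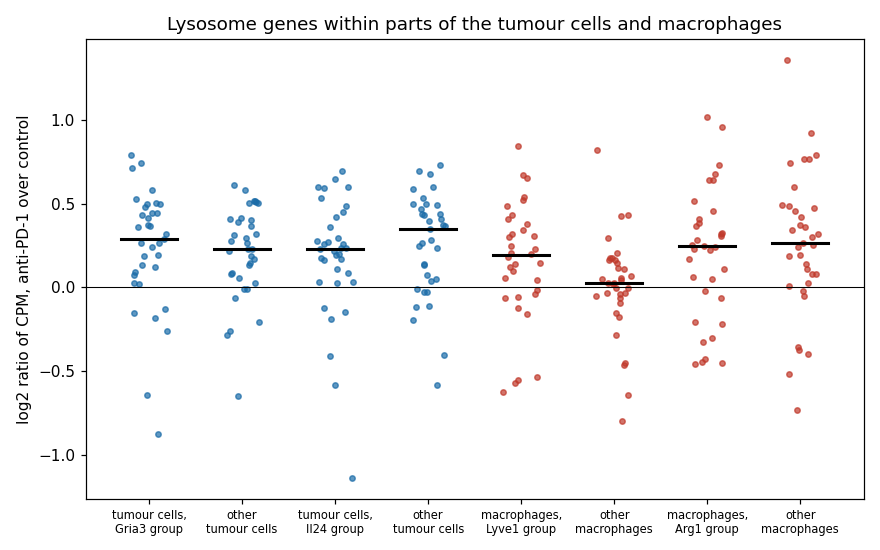
Log2 ratio of CPM, anti-PD-1 over control (vertical axis), of the measured lysosome genes (1 point each) in parts of the tumour cells and of the macrophages set by marker UMIs, with the median as a black bar. Medians were 0.29 and 0.23 inside and outside the Gria3 group, and 0.19 and 0.03 inside and outside the Lyve1 group.

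The rest of the pathway was counted from lists of genes that are no members, chosen with earlier results of these data known. In tumour cells the hydrolases had the highest median of these lists. Of 27 other lysosomal hydrolases measured, 20 were at least 1.25-fold higher and 5 lower, against 13.2% and 16.9% of all measured genes, with a median log2 ratio of 0.43. Lgmn, the asparaginyl endopeptidase legumain, had 404 CPM in anti-PD-1 tumour cells and 244 CPM in control (0.73). Lowest were Acp5 (1.45 CPM in anti-PD-1 tumour cells and 2.95 CPM in control) and Plbd1 (5.82 CPM and 11.8 CPM), both scarce. The 5 lower genes, these with Ctss, Gm2a and Arsb, were all higher in macrophages than in tumour cells in both libraries. Ctss had 10397.5 CPM in anti-PD-1 macrophages and 150 CPM in anti-PD-1 tumour cells. The part of macrophage RNA in these 5, given above for Ctsc and Ctsh, was not tested. Of 15 other membrane proteins and transporters, 6 were higher and 2 lower, with a median of 0.26. Ctns, the cystine exporter, had 24.2 CPM in anti-PD-1 tumour cells and 14.9 CPM in control (0.70), and Gpnmb, a glycoprotein induced under lysosomal stress, had 759 CPM and 484 CPM (0.65).

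Other parts of the pathway were closer to level in tumour cells. The counts of these short lists stand beside 13.2% of all measured genes at least 1.25-fold higher and 16.9% lower. Of 13 other pump subunits, 2 were higher and none lower (median 0.10), with Atp6v0e2 at 0.62 and Atp6v1g1 at −0.29. Of 9 genes of sorting and phosphomannose tagging, 2 were higher and 1 lower (median 0.12). They include Igf2r, a mannose-6-phosphate receptor, with 375 CPM in anti-PD-1 tumour cells and 235 CPM in control (0.67). M6pr, another such receptor, stood at 0.12. Of 15 genes of MiT factors and nutrient sensing, 3 were higher and 1 lower (median 0.07), with the factor gene Mitf at 0.50 from 8.94 CPM in anti-PD-1 tumour cells and 6.32 CPM in control. Of 14 autophagy genes, 1 was higher and 1 lower (median −0.00). Of 5 cathepsin inhibitors, 1 was higher and 1 lower (median −0.12), the first being Cst6, with 9.53 CPM in anti-PD-1 tumour cells and 3.53 CPM in control (1.43).

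In macrophages the other hydrolases again had the highest median log2 ratio, 0.25, with 9 of 27 at least 1.25-fold higher and 3 lower, against 11% and 19.5% of all measured genes. The medians were, for sorting genes, 0.18 (2 of 8 higher, 1 lower), membrane proteins 0.12 (3 of 15 higher, 1 lower) and other pump subunits 0.09 (2 of 11 higher, 1 lower). Nutrient sensing stood at −0.03 (0 of 14 higher, 2 lower), cathepsin inhibitors at −0.05 (1 of 3 higher, 0 lower) and autophagy at −0.10 (2 of 14 higher, 1 lower). Nagpa, the enzyme that uncovers the mannose-6-phosphate tag, had 193 CPM in anti-PD-1 macrophages and 104 CPM in control (0.89). Cd68, a LAMP family protein of macrophages, had 1703 CPM in anti-PD-1 macrophages and 1118 CPM in control (0.61). Plbd1, a phospholipase B-like hydrolase, had 169 CPM in anti-PD-1 macrophages and 365 CPM in control (−1.11), and Gm2a, the GM2 activator, had 728 CPM and 1036 CPM (−0.51). In monocytes the medians were 0.20 for the other hydrolases (14 genes), 0.20 for membrane proteins (8 genes), 0.17 for sorting (5 genes), 0.17 for cathepsin inhibitors (2 genes), 0.07 for pump subunits (10 genes) and 0.05 for autophagy (5 genes). For nutrient sensing the median was −0.24, from only 3 of 16 genes measured, and 0 of 3 lay above the median gene, as 50% of all genes do. These were Rptor (−0.06), Fnip1 (−0.25) and Fnip2 (−0.24), each with an interval that spans 0.

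**Figure D5:**
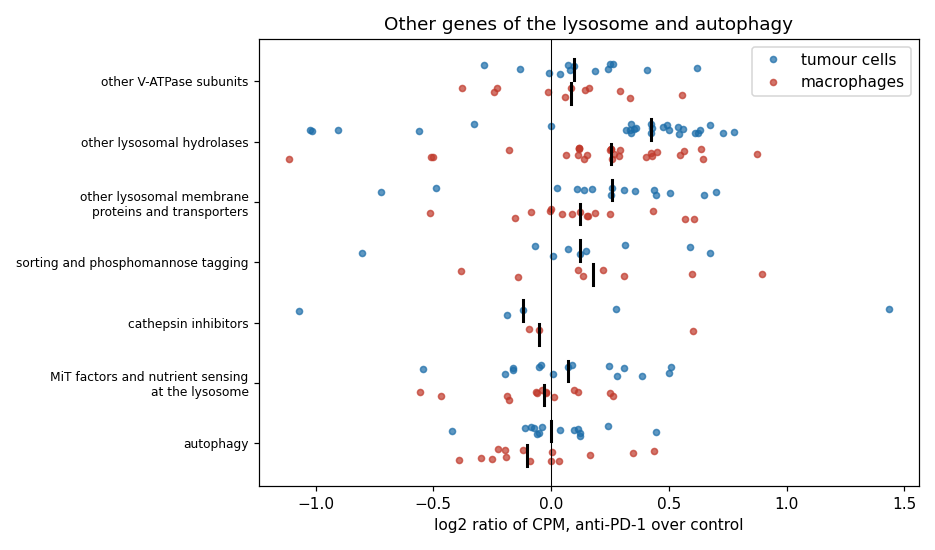
Log2 ratio of CPM, anti-PD-1 over control (horizontal axis), of measured genes (1 point each) in 7 lists of lysosome and autophagy genes that are no members, in tumour cells (upper row of each pair) and macrophages (lower row). Black bars are medians, which are highest for the other hydrolases, at 0.43 in tumour cells and 0.25 in macrophages, and lowest for cathepsin inhibitors in tumour cells (−0.12) and for autophagy in macrophages (−0.10).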

How the data were processed

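Each library was deposited as raw counts of UMIs by gene and barcode, per the file headers. A Flex kit of 10x Genomics, in which probes detect each gene's RNA, is named in the labels' protocols next to a 3' protocol. The submitters' processing notes give Cell Ranger 7.0.1 and mm10, whereas the matrix headers give Cell Ranger 9.0.1. Probes differ in efficiency, which bears on levels between genes. Deposited barcodes had at least 494 UMIs in the anti-PD-1 library and 493 in control, so shallower ones were not analysed here.

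Cells needed 300 or more genes and no more than 20% of UMIs from mitochondrial genes, which left 9422 in the anti-PD-1 library and 8395 in control. Tumour cells had at least 5 UMIs and 400 CPM of the 4 tumour markers and under 200 CPM of Csf1r, Fcgr1 and Ptprc. Myeloid cells had at least 3 UMIs and 800 CPM of Csf1r, Fcgr1 and Ptprc, under 400 CPM of tumour markers, at most 1 UMI each of T cell, NK cell, B cell and dendritic cell markers and at most 4 of neutrophil markers. Macrophages then had at least 5 UMIs of macrophage markers and 4 times their monocyte UMIs, and monocytes at least 5 UMIs of monocyte markers and no fewer than of macrophage markers. No doublet caller was run, and the limits bound the markers of other classes in a cell but do not remove them. The 3 leukocyte genes had no UMI in 2698 of 4994 anti-PD-1 and 1561 of 3504 control tumour cells. Tumour, lymphocyte, dendritic cell and neutrophil markers had none in 370 of 711 anti-PD-1 and 222 of 471 control macrophages. The alternative with no UMI of other classes' markers keeps these cells and monocytes chosen likewise.

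UMIs were summed per class and library and scaled to CPM in Python 3.11.15 (numpy 2.4.6, scipy 1.17.1, pandas 2.3.3), with exact Poisson intervals and exact conditional binomial intervals of ratios (95%). Ratios are log2, anti-PD-1 over control unless said otherwise. The ratio step was tested on simulated data. Named were, in each class, the 6 highest and 6 lowest members, the 5 highest and 5 lowest of macrophages over tumour cells, a fixed set with Tfeb, Tfe3, Lamp1, Lamp2, Ctsd, Ctsb, Grn, Psap, Atp6v0d1 and Atp6v0d2, and extremes of each other list (some items are not reported here), and further members are named to complete a role. Members, lists, markers and class limits were chosen with earlier results of these data known, the limits and the 1.25-fold level after looking at these data, and Vcan and other widely detected markers were left out. Promoter windows came from RefSeq.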

Additional observations from a re-analysis of the deposited data

Results flagged for a closer look

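Psap, Ctsc and Lipa had log2 ratios, anti-PD-1 over control, that pointed in opposite directions in different classes, each with an interval that leaves out 0. Psap stood at 0.10 in tumour cells, −0.49 in macrophages and −0.23 in monocytes. With other cells' RNA subtracted Psap stood at 0.28, −0.52 and −0.24 in these classes. Ctsc stood at −0.48 in tumour cells and −0.31 in macrophages, and at 0.11 in monocytes. With other cells' RNA subtracted Ctsc stood at −0.10 in tumour cells, without the Lyve1 group at −0.05 in macrophages, and with no UMI of other classes' markers allowed at 0.0025 in monocytes. Lipa stood at 0.23 in tumour cells and −0.37 in macrophages. Without the Il24 group, which made up 5.23% of anti-PD-1 and 24.0% of control tumour cells, the tumour ratio of Lipa was 0.04 with an interval that spans 0 (−0.02 to 0.09). With 1 library per group the differences between classes were not tested.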

How the results depend on the processing

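Results were recomputed under 10 planned and 4 added alternatives, each for the classes it touches. Leaving out a replicate could not be run with 1 library per group. No paired analysis was possible because each group has 1 library. The median log2 ratio of members in tumour cells was above 0 in all 12 alternatives run there (0.23 to 0.36, main 0.29): 0.32 with no UMI of other classes' markers allowed, 0.23 without the Gria3 group, 0.36 with other cells' RNA subtracted and 0.35 without the Il24 group. Tumour members at least 1.25-fold lower numbered 0 with no other UMI allowed, 1 without the Gria3 group and 0 after subtraction. At least 2-fold, 1 tumour member was lower with a minimum of 20 UMIs (Atp6v0d2) and 1 higher after subtraction (Ctsh, whose ratio turned to 1.34). The macrophage median was 0.026, and members at least 1.25-fold higher numbered 3, without the Lyve1 group. In macrophages 1 member reached 2-fold higher under median-of-ratios scaling and 1 without the Arg1 group. In monocytes, members above the median gene numbered 14 of 24 with no other UMI allowed and 15 of 23 with cells thinned to 2000 UMIs. Members 1.25-fold higher there numbered 5, and lower 2, with no other UMI allowed, and 1 was lower with cells weighted equally. Macrophages over tumour cells had 1 member 2-fold lower with no other UMI allowed, 1 with cells weighted equally and 1 with thinned cells, and macrophages over monocytes had 7 of 29 2-fold higher with no other UMI allowed. Of 908 recomputed values for single members, 740 stayed within their counting interval, 167 moved beyond it and 1 that lay past 1.25-fold changed sign, as did others near 0. The median width of counting error either side of a ratio was 0.034 in tumour cells, 0.12 in macrophages and 0.30 in monocytes over measured members, so depth limits monocytes most, and genes with more UMIs had narrower intervals. Where no cause is named, the cause was not tested.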
